A study of Homo sapiens with 2 samples.

Results

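Nuclear hormone receptors are transcription factors that bind DNA through paired zinc fingers and, in most members, sense a small fat-soluble ligand in a separate domain. Steroid receptors bind DNA as dimers of themselves, and some, such as the glucocorticoid receptor, wait in the cytoplasm with chaperones. Receptors for retinoic acid, thyroid hormone, vitamin D, oxysterols and fatty acids work in the nucleus as partners of the RXR receptors. Orphan receptors of the family have no known natural ligand or act without one, so their own level sets much of their activity. In melanocytes and melanoma cells, retinoic acid and vitamin D are known to slow growth and favour differentiation, and receptors of the COUP-TF group take part in neural crest development.

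The members were a list of 45 human receptor genes, and a probe set counted for a member when the platform annotation gave that gene as its only symbol. Of the 45 genes, 38 had such a probe set, 126 probe sets in all, among 19775 genes and 54675 probe sets on the array. The value of a gene was that of its brightest probe set, by the mean of both arrays. NR0B1, NR1D1, NR1H2, NR1H4, NR1I2, NR2F2 and HNF4A are not analysed here.

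Both lines are established human melanoma lines, and neither received a treatment that the labels name. IGR39 comes from a primary skin tumour described as achromic, that is, without pigment, and IGR37 from a metastasis in a lymph node; both are known to stem from 1 patient. Each was grown in DMEM with serum, and total RNA was measured on 1 Affymetrix U133 Plus 2.0 array per line. Medium with serum carries steroids, retinoids and thyroid hormone at levels that the labels do not give. Because each line was hybridised to 1 array, no difference has a replicate check and none was tested, and each line is 1 culture standing for its tumour. In RNA from a whole culture, fewer cells that express a gene and less of its RNA per cell cannot be told apart.

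Levels are log2 values, and a difference is IGR37 minus IGR39: 1 is a 2-fold higher level in the metastasis line and -1 a 2-fold lower one. A gene was counted when it reached log2 6 in the brighter line. Genes of cell types that should be absent gave the scale of background: 20 markers of liver and gut, keratinocytes, immune cells and endothelium lay between 2.76 and 5.23 in IGR39 and between 3.08 and 5.11 in IGR37, and 0 of them reached log2 6. RMA, the method behind these values, compresses differences in that range. Over 3178 genes with at least 2 probe sets at log2 6, the differences of 1 gene's probe sets had a pooled SD of 0.40. This SD covers the probes and not the spread between cultures. Melanocyte markers differed between the lines: in IGR37, 6 of 6 measured genes exceeded their IGR39 level by 2-fold or more, and in IGR39 MITF stood at 7.57 while the other 5 lay from 3.15 (TYRP1) to 4.29 (PMEL). Of 6 fibroblast markers, 4 reached log2 6, with LUM at 3.41 in IGR39 against 6.26 in IGR37, FAP at 8.85 and 6.83, COL1A2 at 6.27 and 3.84 and COL1A1 at 5.87 and 6.15. The part of these markers in the receptor differences was not tested.

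Of the 38 receptors, 17 reached log2 6 in the brighter line, or 44.7%; of all 19775 genes, 8501 did, a similar share. Among these 17, 3 were higher in IGR37 by at least 2-fold (17.6%, against 11.4% of the 8501 genes at that level) and 4 were at least 2-fold lower (23.5%, against 9.50%). The 3 higher receptors were NR4A2, NR4A3 and PPARD, and the 4 lower ones were NR2F1, NR3C1, VDR and RXRA. The other 10 lay between -0.39 and 0.63. The median difference of the 17 was -0.03 and that of all genes at this level 0.07. At a minimum of log2 7 the receptor median was -0.38, against 0.11 over all genes. It was -0.38 against 0.09 with the mean over probe sets, and -0.29 against -0.12 with the arrays centred on housekeeping genes. The gap to all genes thus depended on the setting, and a shift of the receptors as 1 group was not tested. The differences of the 17 receptors had an SD of 1.91 against 1.18 over all genes at log2 6. Without NR2F1, which lay furthest from 0 and was left out after its value was seen, the SD of the other 16 was 1.32. Centring the arrays on 22 housekeeping genes moved every difference down by 0.17; over all genes it gave 731 higher and 1037 lower genes in place of 973 and 808, and the same 3 and 4 receptors.

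**Figure D1:**
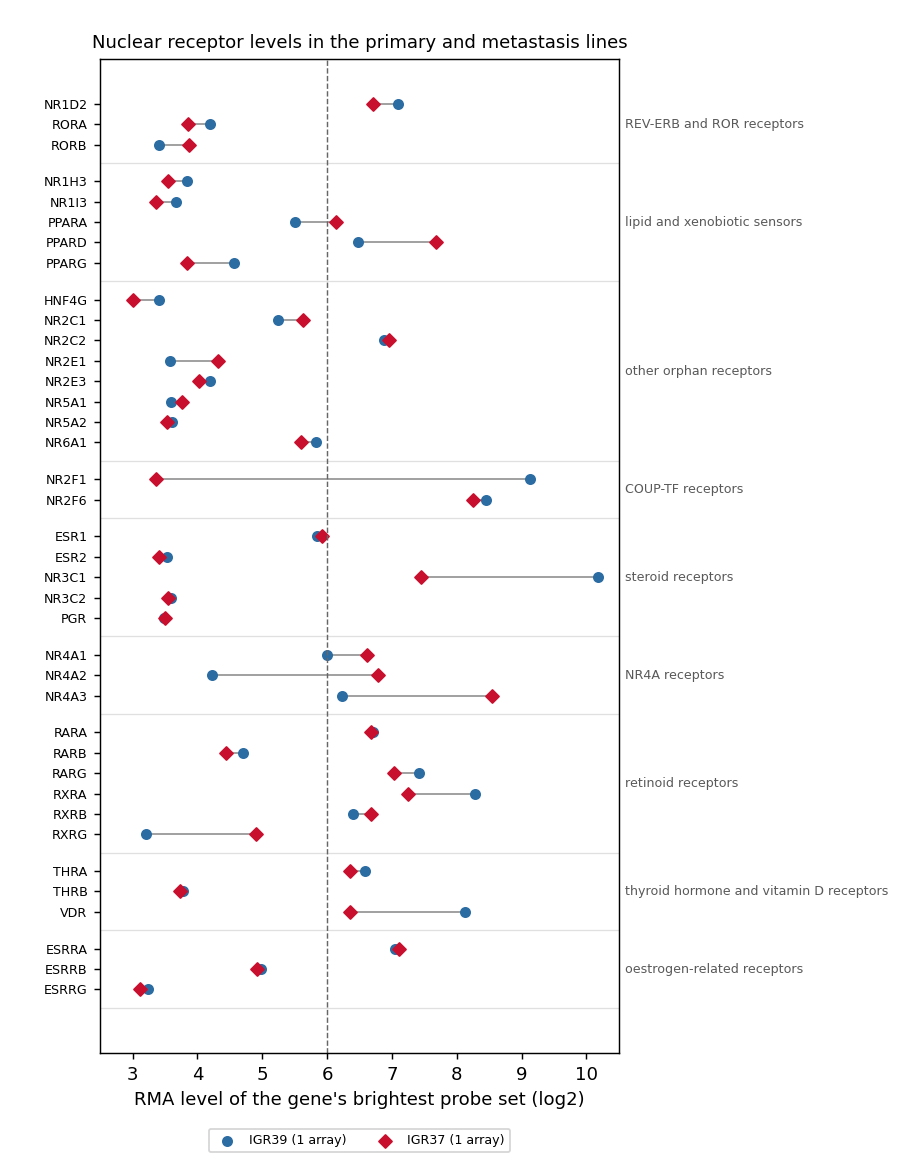
Log2 RMA level of each of the 38 receptors in IGR39 (circles) and IGR37 (diamonds), by receptor class; the dashed line marks log2 6, and levels are to be compared within a row only, since probe sets differ in brightness. The widest gap is that of NR2F1, from 9.13 to 3.37, and most other rows show overlapping or neighbouring points.

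The promoters of 3 receptors past the 2-fold limit are shown to illustrate a sequence element of cyclic AMP signalling, which controls pigment cells through the MC1R receptor and is a known inducer of the NR4A genes. They were chosen after their matches and differences were known, as examples with and without the element. The sequences are the 250 bases before the outermost RefSeq start of each gene in GRCh38.p14, all on the plus strand, at chr9:99821635-99821884 for NR4A3, chr6:35342308-35342557 for PPARD and chr5:93582972-93583221 for NR2F1. Capitals mark TGACG on either strand, the core of the cyclic AMP response element bound by CREB.
NR4A3: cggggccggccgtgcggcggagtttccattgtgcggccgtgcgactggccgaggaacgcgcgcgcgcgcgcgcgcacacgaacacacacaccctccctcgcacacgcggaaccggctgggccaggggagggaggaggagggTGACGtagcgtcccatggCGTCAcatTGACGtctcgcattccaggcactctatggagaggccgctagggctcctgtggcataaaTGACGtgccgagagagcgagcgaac
PPARD: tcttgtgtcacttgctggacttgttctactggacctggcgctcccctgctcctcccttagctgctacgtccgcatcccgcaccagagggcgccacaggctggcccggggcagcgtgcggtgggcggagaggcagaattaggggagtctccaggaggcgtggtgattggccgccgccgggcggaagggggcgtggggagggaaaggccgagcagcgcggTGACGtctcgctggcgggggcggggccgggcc
NR2F1: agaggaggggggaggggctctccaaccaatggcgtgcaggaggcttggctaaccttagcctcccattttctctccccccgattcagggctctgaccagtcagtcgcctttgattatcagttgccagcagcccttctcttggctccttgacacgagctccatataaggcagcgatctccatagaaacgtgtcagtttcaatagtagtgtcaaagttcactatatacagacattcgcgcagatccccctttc

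The NR4A3 stretch held 4 matches and the PPARD stretch 1, while these letters are not in the NR2F1 stretch. NR3C1, lower in IGR37, held the element at 2 of 7 starts, and RXRA, also lower, at 0 of 2. NR1D2, within 2-fold at a difference of -0.39, held the element at 1 of 2 starts, and NR4A1, also within 2-fold, at 0 of 2. Whether the element goes with the direction of a receptor was not tested. NR4A2 and VDR are not among the matched promoters. Over all 35116 starts in the RefSeq table, 21.2% had at least 1 match in the same window and 0.236% had 4 or more. The limit of 4 is the count of NR4A3, taken after it was seen, so the last share does not measure how unusual NR4A3 is. RefSeq promoters were matched for 41 of the 45 receptors, with 96 starts; 16.7% of these starts held TGACG, and among the 14 matched receptors at log2 6, 4 had a start with a match. The receptor half-site AGGTCA, the hexamer that most of these receptors recognise, was found on either strand at 15.6% of the receptors' starts and 12.1% of all starts. Among the 14 matched receptors at log2 6, 1 held it. The ratio of observed to expected CpG dinucleotides, a measure of how far a promoter resembles a CpG island, was 1.15 in the NR4A3 window, 0.757 in that of PPARD and 0.472 in that of NR2F1. Taking the highest ratio over a gene's starts, the median was 0.967 over these 14 receptors, 0.787 over the 20 matched receptors below log2 6 and 0.611 over 27305 genes of the table. Taking the highest favours genes with more starts. The 41 receptors had 96 starts and the 27305 genes 35116, so these medians are not compared on equal terms. A match describes letters and is not evidence of a bound site.

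**Figure D2:**
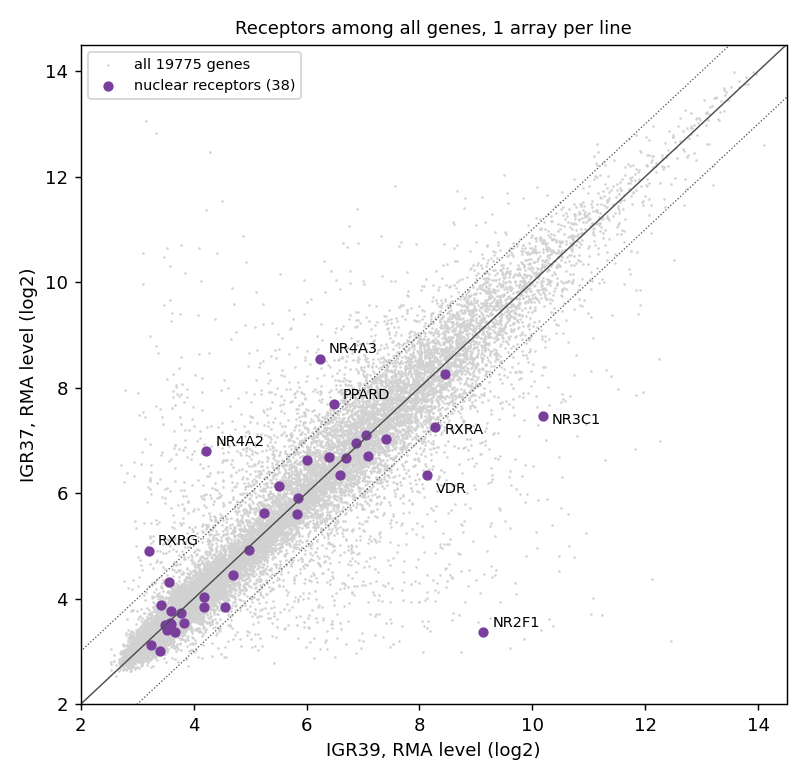
Log2 RMA level in IGR37 against IGR39 for all 19775 genes (grey) and the 38 receptors (purple); the solid line is equality, the dotted lines mark 2-fold, and receptors past 2-fold are named. NR2F1, NR3C1, VDR and RXRA lie below the lower dotted line and NR4A2, NR4A3, PPARD and the dim RXRG above the upper one.

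Of the 5 steroid receptors measured, only the glucocorticoid receptor reached log2 6. NR3C1, which encodes the glucocorticoid receptor, stood at 10.18 in IGR39 against 7.46 in IGR37, a difference of -2.73 or a 6.61-fold lower level. It was above log2 6 in both lines. Its other probe sets stood at 9.67 and 6.47, at 8.97 and 6.07, at 8.02 and 5.17 and at 5.90 and 3.92. All 5 were lower in IGR37, by -3.21 to -1.97, so that the brightest probe set did not give the largest difference. ESR1, the alpha oestrogen receptor, was at 5.84 and 5.92 on its brightest probe set, and its 9 probe sets differed by -0.35 to 0.30. ESR2, the beta receptor, was at 3.54 and 3.42, the progesterone receptor gene PGR at 3.49 and 3.50, and NR3C2, the mineralocorticoid receptor, at 3.59 and 3.54. ESR2, PGR and NR3C2 lay within the range of the absent-lineage markers in both lines, where the array does not show whether they are expressed, and ESR1 lay between that range and log2 6. The androgen receptor is not analysed here.

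Genes known to respond to glucocorticoids lay in both directions, and a link to the receptor was not tested. Of 11 at log2 6, 5 were lower in IGR37 by 2-fold or more and 2 higher by as much, with a median of -0.95. Of all 8501 genes at that level, 9.50% were at least 2-fold lower and 11.4% higher, with a median of 0.07. These shares are also the scale for the other lists given below, which are short. ERRFI1, an inhibitor of EGFR, was at 9.86 in IGR39 against 5.84 in IGR37, TIPARP, a mono-ADP-ribosyltransferase, at 9.85 and 7.38, and NFKBIA, an inhibitor of NF-kB, at 9.42 and 7.71. The kinase gene SGK1 went the other way, at 9.10 and 11.61, as did FKBP5, a chaperone that holds the receptor inactive, at 4.55 and 6.63. Housekeeping centring and removal of the lowess trend each gave 7 lower and 2 higher genes. Of 10 receptor chaperones, FKBP5 was the only one at least 2-fold apart, and the list median was 0.33. Of 8 genes of steroid synthesis and conversion at log2 6, 3 were at least 2-fold lower and 0 higher, with a median of -0.55. They were the aldo-keto reductases AKR1C1, at 7.13 and 4.78, AKR1C2, with a difference of -2.66, and AKR1C3, at 6.22 and 3.89. These genes are close relatives of similar sequence, so their probe sets may share signal. Of 7 oestrogen response genes at log2 6, GREB1 was at 4.11 and 7.04, STC2 at 8.06 and 5.16 and IGFBP4 at 8.37 and 7.30. The other 4 lay within 2-fold, and the list median of 0.08 turned to -0.09 with housekeeping centring.

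The retinoid receptors were mostly alike in both lines. RARA, the alpha receptor for retinoic acid, stood at 6.71 in IGR39 against 6.67 in IGR37, and RARG, the form that predominates in skin, at 7.42 and 7.04. RARB, itself a retinoic acid response gene, was at 4.70 and 4.44, below log2 6. Of its 5 probe sets, 4 were lower in IGR37, in a range of -0.37 to 0.16. The RARs need an RXR partner, and of the 3 RXR genes RXRA and RXRB reached log2 6.

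RXRA stood at 8.28 in IGR39 against 7.25 in IGR37, a difference of -1.03 that lay just past the 2-fold limit. Its other probe set, at 5.86 and 5.52, differed by -0.34, and the mean of both was -0.68, within 2-fold. RXRB was at 6.41 and 6.68, a difference of 0.27. RXRG, a form restricted to few tissues, was at 3.21 in IGR39 against 4.91 in IGR37, a difference of 1.70 on its 1 probe set. Both its values lay within the range of the absent-lineage markers, so RXRG entered no count.

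Of 7 genes of retinoid supply and breakdown at log2 6, 3 were lower in IGR37 by 2-fold or more and 1 was higher, with a median of -0.50. The lower ones make retinal or retinoic acid or return retinal to retinol: RDH10 was at 7.67 in IGR39 against 5.39 in IGR37, ALDH1A3 at 7.50 and 5.35, and DHRS3 at 7.10 and 5.14. FABP5, a carrier that can pass retinoic acid to PPARD, was the higher one, at 9.19 and 10.70. Of 6 retinoic acid response genes at log2 6, 3 were at least 2-fold lower and 0 higher, with a median of -1.23. Over all genes at that level, the shares were 9.50% lower and 11.4% higher, and the median 0.07. PLAAT4 was at 8.80 and 3.94, the transglutaminase TGM2 at 8.79 and 5.47, and DHRS3 belongs to this list as well. CYP26A1, the retinoic acid hydroxylase whose gene is a direct target of the RARs, was near background at 4.58 and 4.39. CYP26B1, also in both lists, was at 5.42 and 3.67, below log2 6. PLAAT4 is also known as an interferon-induced gene.

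VDR, the vitamin D receptor, stood at 8.13 in IGR39 against 6.35 in IGR37, a difference of -1.78 or a 3.43-fold lower level. A second probe set was at 6.72 and 5.45, a difference of -1.28, and the remaining pair, below log2 6, differed by -0.15 and -0.30. The mean over its 4 probe sets was -0.88, within 2-fold. CYP24A1, the hydroxylase that VDR induces and that breaks vitamin D down, was at 2.99 and 3.30. Of the 10 measured genes of vitamin D handling and response, CYP27A1, a sterol hydroxylase, was the only one to reach log2 6, at 5.86 and 8.01.

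The thyroid hormone receptors were within 2-fold. THRA stood at 6.58 in IGR39 against 6.35 in IGR37, and its 4 probe sets differed by -0.42 to 0.29. THRB was near background at 3.77 and 3.73. Of 4 genes of thyroid hormone supply and response at log2 6, the transporters SLC16A10, at 3.49 and 6.08, and SLCO4A1, at 5.38 and 7.92, were higher in IGR37. DIO2, which activates the hormone, was lower, at 6.13 and 3.26. The list median of 0.79 turned to -1.12 with housekeeping centring, which left 3 genes at log2 6.

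Of the lipid and xenobiotic sensors, PPARD and PPARA reached log2 6, and PPARD alone passed the 2-fold limit. PPARD, which responds to fatty acids and drives their oxidation, stood at 6.48 in IGR39 against 7.68 in IGR37, a difference of 1.20 or a 2.30-fold higher level. Its second probe set at log2 6 was at 4.29 and 6.17, a difference of 1.88, and the remaining pair differed by 0.19 and 0.15. The mean over its 4 probe sets was 0.86, within 2-fold. PPARA, the form known from liver and muscle, was at 5.51 and 6.14, a difference of 0.63, and 8 of its 9 probe sets were higher in IGR37. PPARG, the regulator of fat cell differentiation, was at 4.56 and 3.84, below log2 6. The oxysterol receptor NR1H3 was at 3.84 and 3.54, and the xenobiotic receptor NR1I3 at 3.67 and 3.36.

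Of 8 PPAR response genes at log2 6, 3 were higher in IGR37 by 2-fold or more and 2 lower, with a median of 0.41. The higher ones encode enzymes of fatty acid oxidation: HADHA was at 8.89 in IGR39 against 10.59 in IGR37, CPT2 at 6.36 and 7.53, and ACADM at 7.35 and 8.43. CPT1A, at the entry of the same pathway, was at 8.34 and 7.26 and ANGPTL4, an inhibitor of lipoprotein lipase, at 6.04 and 5.03. PDK4 and PLIN2, which PPARs are known to induce, were near background, at 3.39 and 3.40 and at 3.91 and 3.82. Housekeeping centring gave 2 higher and 2 lower genes. With the mean over each gene's probe sets, 5 genes reached log2 6, with 2 higher, 0 lower and a median of 0.90.

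Of 8 LXR response genes at log2 6, 4 were at least 2-fold higher and 1 lower, with a median of 1.20. Over all genes at that level, 11.4% were higher and 9.50% lower. SCD and FASN, enzymes of fatty acid synthesis, were at 7.56 and 10.03 and at 6.49 and 8.53. SMPDL3A was at 4.88 and 6.85. The cholesterol exporter ABCA1 went the other way, at 7.69 in IGR39 against 3.48 in IGR37, so the listed genes past the limit lay on both sides of 0. With the mean over probe sets, 4 genes reached log2 6, with 2 higher, 0 lower and a median of 0.95.

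The receptors of the circadian clock that were measured were within 2-fold. NR1D2, a REV-ERB repressor of the clock, stood at 7.09 in IGR39 against 6.70 in IGR37, with -0.39 on this probe set and -0.70 on the other. RORA, which activates from the same DNA element, was at 4.19 and 3.85 with 8 probe sets between -0.34 and 0.30, and RORB was at 3.42 and 3.88. Of 11 clock genes at log2 6, 8 lay within 2-fold, and the median was -0.08. BHLHE41, a repressor of the clock, was at 5.18 and 8.46, NPAS2 at 6.02 and 7.20 and TEF at 6.07 and 5.01. With the mean over probe sets, 7 clock genes reached log2 6 and 0 of them were past 2-fold.

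The NR4A receptors were higher in IGR37, with 2 of 3 past the 2-fold limit. These are ligand-independent orphan receptors, and their genes are known as immediate early genes that cells switch on within minutes of a stimulus. NR4A3 stood at 6.23 in IGR39 against 8.55 in IGR37, a difference of 2.32 or a 4.98-fold higher level. A second probe set was at 4.23 and 8.73, a difference of 4.50. The probe sets thus shared the direction and not the size, and the third was near background at 3.32 and 3.68. NR4A2 stood at 4.22 and 6.79, a difference of 2.57, and its 3 probe sets lay between 2.09 and 2.57. NR4A1 stood at 6.00 and 6.62 on its brightest probe set, a difference of 0.62 that left it within the limit. Another of its probe sets was at 5.35 and 6.79, a difference of 1.44.

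Other immediate early genes were found in both directions. Of 11 at log2 6, 6 were lower in IGR37 by 2-fold or more and 2 higher by as much, with a median of -1.15. Over all genes at that level, 9.50% were lower and 11.4% higher. FOS was at 5.60 in IGR39 against 8.23 in IGR37 and MYC at 9.02 and 10.32. JUN was at 8.09 and 3.98, the Kruppel-like factor KLF4 at 9.42 and 5.69, and FOSL1 at 10.52 and 7.87. EGR1, a common early response gene, was at 9.77 and 9.37.

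The COUP-TF receptors held the largest difference of the 38 receptors measured. NR2F1, which encodes COUP-TF1, stood at 9.13 in IGR39 against 3.37 in IGR37, a difference of -5.76 or a 54.3-fold lower level. It rests on 1 probe set, and its level in IGR37 lay within the range of the absent-lineage markers, so the fold depends on a value at background. NR2F6, the third gene of the group, was at 8.45 and 8.26, and its 3 probe sets differed by -0.29 to -0.15.

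**Figure D3:**
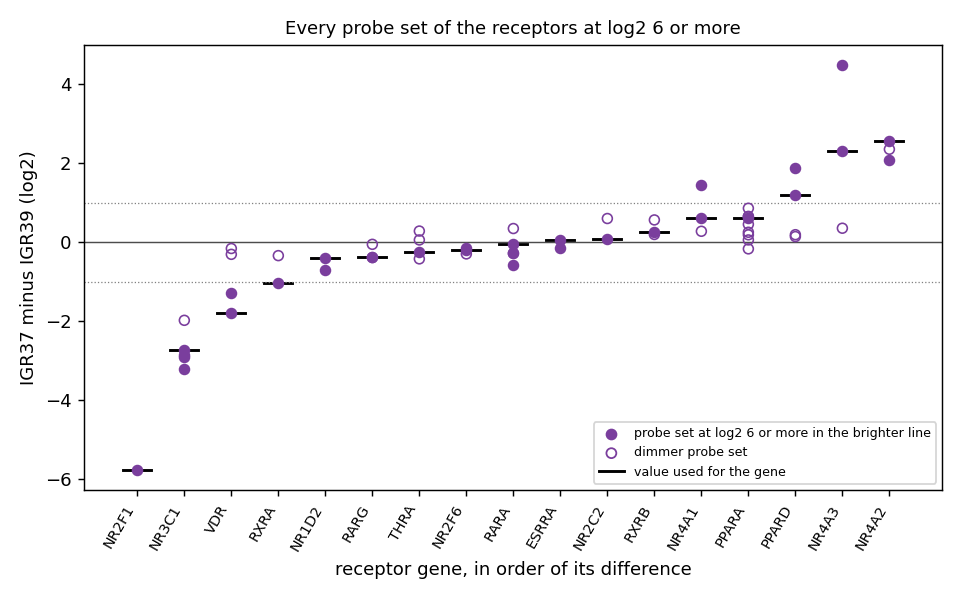
Difference between the lines (IGR37 minus IGR39, log2) for every probe set of the 17 receptors that reached log2 6, in order of the gene's own value (black bar); filled points are probe sets at log2 6 or more in the brighter line, open points dimmer ones, and dotted lines mark 2-fold. The filled points of NR3C1 and NR4A2 lie close together, while those of NR4A3 spread from 2.32 to 4.50 and the open points of VDR and PPARD lie near 0.

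Among the oestrogen-related receptors, ESRRA, a regulator of mitochondrial genes, stood at 7.05 in IGR39 against 7.11 in IGR37, with 0.06 and -0.15 on its probe sets. ESRRB was at 4.98 and 4.91 and ESRRG at 3.25 and 3.12. Of the other orphan receptors, NR2C2, or TR4, was at 6.88 and 6.96 and was the only one to reach log2 6. NR2C1, or TR2, was at 5.24 and 5.63, and NR6A1, a receptor of germ and embryonic cells, at 5.83 and 5.60 with 7 probe sets between -0.29 and 0.21. NR2E1, known from neural stem cells, was at 3.57 and 4.32, a difference of 0.75.

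The remaining orphans are receptors of specialised tissues and lay near background. The photoreceptor gene NR2E3 was at 4.19 in IGR39 against 4.03 in IGR37, and HNF4G, a relative of the liver receptor, at 3.40 and 3.01. NR5A1, the regulator of steroid-producing tissue, was at 3.60 and 3.77, and NR5A2, known from liver and pancreas, at 3.61 and 3.53. Over the 21 receptors below log2 6 in both lines, levels spanned 3.21 to 5.84 in IGR39 and 3.01 to 5.92 in IGR37. All but RXRG lay within 2-fold, between -0.72 and 0.75, with 11 of them under log2 4 in both lines.

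Where several probe sets of a receptor reached log2 6, their directions could be compared. Of the 7 receptors past the 2-fold limit, 5 had at least 2 such probe sets, and in these 5 all pointed the same way. A probe set can reach log2 6 through its brighter line alone, which favours this. NR2F1 and RXRA had 1 each. Choosing receptors past 2-fold also makes agreement likely, since the pooled SD within a gene was 0.40. The matching share over all genes past 2-fold was not computed, so the count of 5 does not set the receptors apart.

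The coregulators that receptors recruit were mostly alike. Of 16 coactivators at log2 6, 13 lay within 2-fold, and the median was -0.06. The acetyltransferase KAT2B was at 4.91 in IGR39 against 7.09 in IGR37, MED12, a Mediator subunit, at 5.86 and 6.94, and NCOA7 at 7.71 and 5.94. With housekeeping centring, 1 coactivator was higher and 3 were lower. PPARGC1A, a partner of PPARs and oestrogen-related receptors, was at 3.83 and 4.76, below log2 6. Of 6 corepressors at log2 6, 5 lay within 2-fold, and the median was -0.30. HR, a corepressor of the thyroid hormone, vitamin D and ROR receptors, was at 6.21 and 8.73, a difference of 2.53, and its 3 probe sets at this level differed by 1.31 to 2.53.

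**Figure D4:**
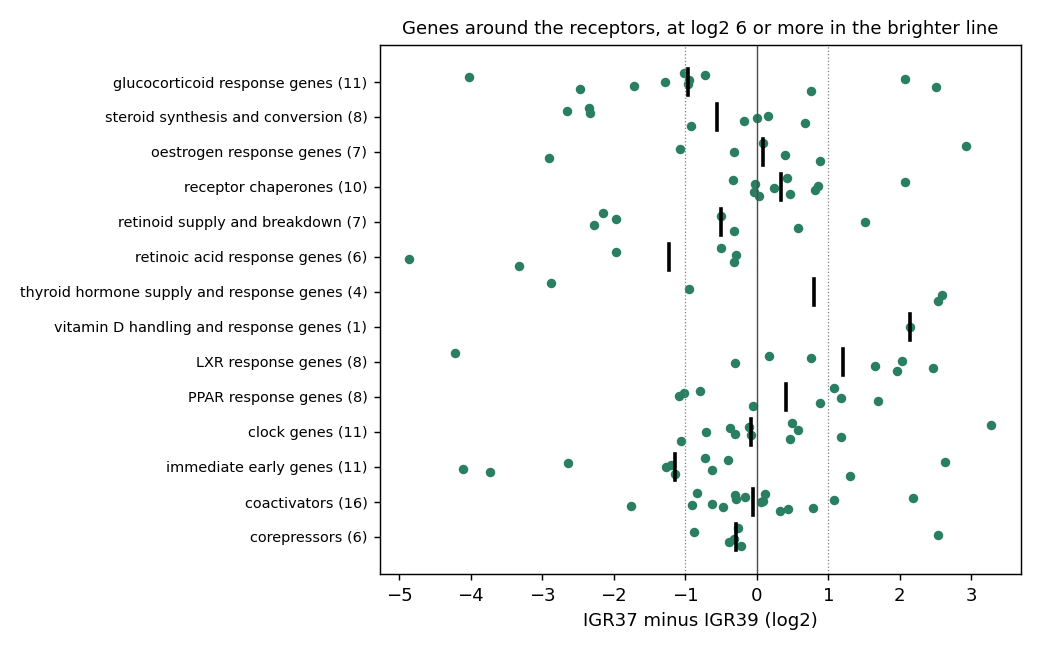
Difference between the lines (IGR37 minus IGR39, log2) of each gene at log2 6 or more in the brighter line, for 14 lists of genes that act with the receptors; points are genes, the black bar is the list median, the count of genes stands after the list's name and dotted lines mark 2-fold. Retinoic acid response and immediate early genes have medians of -1.23 and -1.15, LXR response genes 1.20, and most lists hold genes on both sides of 0.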

How the data were processed

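RNA of 2 lines, IGR39 and IGR37, was measured on 1 array each. The deposited table holds log2 values, 1 for each probe set; RMA and affy are named in the submitters' processing notes. The version used and the arrays normalised together were not given in the sources used here. RMA models background, equalises the arrays' distributions and summarises probes, so overall brightness differences are removed. Of 54675 probe sets, 62 were controls, 41091 had 1 symbol, 1801 several and 11721 none; only those with 1 symbol were used. Symbols came from the platform annotation, updated through a RefSeq gene table (GRCh38.p14).

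Differences, counts past 2-fold and medians were computed for genes at log2 6 or more in the brighter line, with no test. All members are named. From each list, up to 3 genes per direction with the largest differences past 2-fold are named. Other list genes (CYP24A1, CYP26A1, CYP26B1, PDK4, PLIN2, PPARGC1A and EGR1) were chosen after their values were seen. The members and lists were chosen with earlier results of these data known. Alternatives were a minimum of log2 5, 7 or none, the mean over probe sets, omission of probe sets ending in _x_at or _s_at, and centring on medians, on housekeeping genes or on a lowess trend (span 0.3). The counting was run on simulated data with large differences and less noise than the probe sets here, which checks the code and not the calls. Python 3.11.15, numpy 2.4.6, pandas 2.3.3, statsmodels 0.14.6 and matplotlib 3.10.9 were used.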

Additional observations from a re-analysis of the deposited data

Results flagged for a closer look

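In probe sets outside the gene values, 3 carry the symbols of both NR1D1 and THRA, which overlap on opposite strands, and entered no gene value. The highest of them read 7.90 in IGR39 against 7.09 in IGR37, a difference of -0.80, above the range of the absent-lineage markers in both lines. The others were at 5.85 and 4.73 and at 4.51 and 4.33. Which of the genes gives this signal was not tested.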

How the results depend on the processing

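The same 3 higher and 4 lower receptors passed the 2-fold limit with a minimum of log2 5 and under all 3 centrings. At log2 5, 1103 of all 10833 genes were higher and 923 lower. Median centring gave 1015 higher and 789 lower of 8525 genes, and removal of the lowess trend 878 and 892 of 8501. A minimum of log2 7 left 10 receptors, with 2 higher, 4 lower and a median of -0.38. Of all 6092 genes at that level, 748 were higher and 612 lower, with a median of 0.11. Without a minimum 38 receptors were counted, with RXRG as a 4th higher one. Of all 19775 genes, 1146 were then higher and 960 lower. Averaging all probe sets of a gene left 10 receptors at log2 6, with 2 higher, 2 lower and a median of -0.38. VDR (-0.88), RXRA (-0.68) and PPARD (0.86) came within 2-fold. Over all genes, averaging left 5878 at log2 6, with 588 higher, 503 lower and a median of 0.09. When _x_at and _s_at probe sets were left out, 9 receptors reached log2 6, with 2 higher and 1 lower, beside 678 and 570 of 5655 genes. NR3C1 remained at -1.97 on a probe set below that level, and VDR, RXRA and NR4A2 had none left. The same averaging gave 1 higher and 3 lower of 6 glucocorticoid response genes, 1 and 1 of 3 genes of retinoid supply, 0 and 2 of 4 of steroid synthesis, 0 and 2 of 5 oestrogen response genes (median -0.26), 1 and 0 of 10 coactivators and 1 thyroid hormone gene at log2 6, which was higher. Housekeeping centring moved every difference down by 0.17 and left 16 receptors at log2 6, since PPARA fell below it. The median of those receptors was -0.29, and that of all genes -0.12. Of the 17 receptor differences, 0 past the limit changed sign under any alternative run. No paired analysis was possible because each line has 1 array. The number of arrays limits the precision, and levels near background limit what can be said of the 21 dim receptors.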

Other observations

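NR0B2, a repressor among the nuclear receptors that is not in the list of 45, was at 5.32 in both lines. NR2F1 and NR3C1, the receptors with the largest negative differences, both lie on chromosome 5. The other lower receptors, VDR and RXRA, lie on chromosomes 12 and 9. Whether further genes of chromosome 5 were lower was not tested. The largest positive differences were those of NR4A2 on chromosome 2 and NR4A3 on chromosome 9.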
